A study of Mus musculus with 24 samples.

Results

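The genes described here are 9 regulators of deep-layer and subplate neurons of the developing cortex, *Tbr1*, *Fezf2*, *Bcl11b*, *Sox5*, *Foxp2*, *Tle4*, *Nr4a2*, *Zfpm2* and *Bcl11a*. They were taken by symbol from a table of 54658 mouse genes, in which each of the 9 had 1 row, and all 9 passed the filter on low values in each of the 14 comparisons below. The table holds 24 libraries of 3′ RNA-seq, 3 in each of 8 groups, from *Cep135*(+/+) controls and *Cep135*(Δ8/Δ8) mutants of a C57BL/6J line. CEP135 is a protein of the centriole, and the Δ8 allele is a germline deletion made by CRISPR in exon 2, so that every cell of a mutant embryo and of a culture made from it carries the allele, and all embryos came from heterozygous parents. The groups are dorsal telencephalon at E11.5 (controls D, E and F, mutants A, B and C), dorsal telencephalon at E14.5 (controls 3, 4 and 5, mutants 1, 2 and 6), and cells of the same 6 E14.5 embryos kept in suspension with EGF, FGF2, B27 and N2 for 12 or 24 hours as neurospheres. The labels call the cultured cells cortical neural progenitors, and the label set of mutant 6 gives both ages for its cortex, which was taken as E14.5 from its title.

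The 24 libraries held 4732781 to 11645213 reads on genes. By *Xist* and Y-linked transcripts 5 of the embryos were female (A, C, E, 1 and 2), so that all E14.5 controls were male. The RNA *Gm42418*, which carries ribosomal sequence, took 6.11% to 34.8% of the normalized counts. At 24 hours both depth and this share moved with genotype: controls held 4732781 to 5709443 reads with 6.26 to 13.9% on *Gm42418*, and mutants 7903426 to 11645213 reads with 20.5 to 23%. *Cep135* itself lay at 171 to 271 normalized counts in E14.5 controls and 173 to 283 in E14.5 mutants (log2 fold change 0.14 (SE 0.22), adjusted p = 0.865). The reads come from the 3′ end and the deletion lies in exon 2, so this value does not check the genotype.

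The cerebral cortex is built from the inside outward: subplate and deep-layer neurons are born first, and upper-layer neurons migrate past them later. Deep-layer neurons send their axons out of the cortex, to the thalamus, brainstem and spinal cord, and their identities are set by transcription factors that repress one another. *Tbr1*, a T-box factor, and *Tle4*, a Groucho-type corepressor, mark corticothalamic neurons, as does *Zfpm2*, a zinc-finger cofactor of GATA proteins. *Fezf2*, a zinc-finger factor that is already present in progenitors, directs neurons to a subcerebral fate and acts upstream of *Bcl11b* (CTIP2), which shapes their axons. *Sox5*, an SRY-box factor without an activation domain, controls when subplate and corticofugal neurons settle and mature. *Nr4a2* (NURR1), an orphan nuclear receptor, marks the subplate, *Foxp2* is a forkhead repressor of corticothalamic neurons, and *Bcl11a* (CTIP1) is a zinc-finger factor of many cortical projection neurons. *Bcl11b* and *Foxp2* are also made by striatal neurons, and *Nr4a2* is also induced by neuronal activity.

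RefSeq promoters of GRCm38.p6 were found for 7 of the 9 genes, not for *Foxp2* and *Zfpm2*. The 250 bases before the start are shown 5′ to 3′ for *Sox5* (chr6:143947107-143947356, minus strand) and *Nr4a2* (chr2:57124004-57124253, minus strand), which of the members had the largest differences between genotypes at E14.5 and whose windows hold 0 bases of GENCODE exons. The *Sox5* start used is internal: its window lies inside the annotated gene, whose 5′ end on the minus strand is at 144781977. It is therefore not the sequence before that 5′ end. Capitals mark matches, on either strand, to 6 motifs that were searched: the E-box CAGATG of NeuroD-type bHLH factors, the general E-box CAGCTG of other bHLH factors, the T-box motif GGTGTGA, the homeodomain motif TAATTA, the SOX motif ACAAAG and the TATA box TATAAA, none of which is part of another.
Sox5: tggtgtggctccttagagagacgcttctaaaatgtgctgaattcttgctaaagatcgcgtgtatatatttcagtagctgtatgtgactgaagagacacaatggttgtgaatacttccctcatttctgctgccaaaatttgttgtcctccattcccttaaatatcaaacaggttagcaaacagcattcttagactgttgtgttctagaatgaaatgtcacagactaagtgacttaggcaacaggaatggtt
Nr4a2: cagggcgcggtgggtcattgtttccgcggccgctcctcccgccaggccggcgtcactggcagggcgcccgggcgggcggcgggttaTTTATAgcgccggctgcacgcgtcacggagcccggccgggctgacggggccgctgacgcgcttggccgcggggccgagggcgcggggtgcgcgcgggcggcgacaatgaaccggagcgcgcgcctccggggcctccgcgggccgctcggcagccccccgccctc

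The *Nr4a2* window holds 1 TATAAA, on the opposite strand, and is 80% G and C, and the *Sox5* window holds none of the 6 motifs and is 39.6% G and C, beside a median of 52.4% over all 32851 promoters. Among the 8 promoters of the 7 members, *Tbr1* held TAATTA at 33 and 18 bases before the RefSeq start used, and ACAAAG. This *Tbr1* window (61804203 to 61804452) lies inside the annotated gene, which starts at 61802930. All 250 of its bases are in GENCODE exons, so these matches are in exon sequence. No further match was found in the 8 windows. Of all promoters 12.4% held TATAAA, 4.84% TAATTA, 16.5% ACAAAG, 14.4% CAGATG, 13.0% CAGCTG and 3.33% GGTGTGA.

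By GENCODE vM21 on GRCm38 the 9 are protein-coding genes. *Tbr1* is ENSMUSG00000035033, chromosome 2, 61802930 to 61814114, plus strand, and *Fezf2* is ENSMUSG00000021743, chromosome 14, 12342094 to 12348189, minus strand. *Bcl11b* is ENSMUSG00000048251, chromosome 12, 107910403 to 108003602, minus strand, and *Bcl11a* is ENSMUSG00000000861, chromosome 11, 24078056 to 24174123, plus strand. *Sox5* is ENSMUSG00000041540, chromosome 6, 143828425 to 144781977, minus strand, a locus that other genes overlap on both strands, with a mean of at most 23.9 normalized counts for those on its own strand. *Foxp2* is ENSMUSG00000029563, chromosome 6, 14901349 to 15441977, plus strand, *Tle4* is ENSMUSG00000024642, chromosome 19, 14448150 to 14598051, minus strand, and *Nr4a2* is ENSMUSG00000026826, chromosome 2, 57106830 to 57124003, minus strand. *Zfpm2* is ENSMUSG00000022306, chromosome 15, 40655035 to 41104592, plus strand. Genes on its own strand overlap this locus too, with a mean of at most 9.13 normalized counts, beside 14.8 to 27.9 for *Zfpm2* at E11.5. The values of *Zfpm2* rest on 21 to 254 reads per library, those of *Foxp2* on 140 to 822, and those of *Bcl11b* on 836 to 11587, so that counting error weighs most on *Zfpm2*.

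Every member was measured above 0 in all 24 libraries. Between the group with the highest mean and that with the lowest, the mean normalized count differed 6.65-fold for *Bcl11b*, 6.62-fold for *Zfpm2*, 3.53-fold for *Nr4a2* and 3.5-fold for *Sox5*. The range was narrower for *Bcl11a* (2.92-fold) and *Tbr1* (2.85-fold), and narrowest for *Foxp2* (1.92-fold), *Fezf2* (1.81-fold) and *Tle4* (1.77-fold). The order of the groups divided the genes. For *Tbr1*, *Bcl11b*, *Zfpm2*, *Sox5* and *Bcl11a*, the E11.5 groups were lowest in both genotypes and did not overlap with the group above them. *Foxp2* ran the other way, with its 4 cortex groups above its 4 culture groups, and *Tle4* had its 4 culture groups on top. *Fezf2* was lowest in 24-hour mutant cultures and *Nr4a2* highest in 24-hour control cultures. Most neighbours in these orders overlapped: for *Tbr1* the 6 groups other than E11.5 each overlapped with the next.

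**Figure D1:**
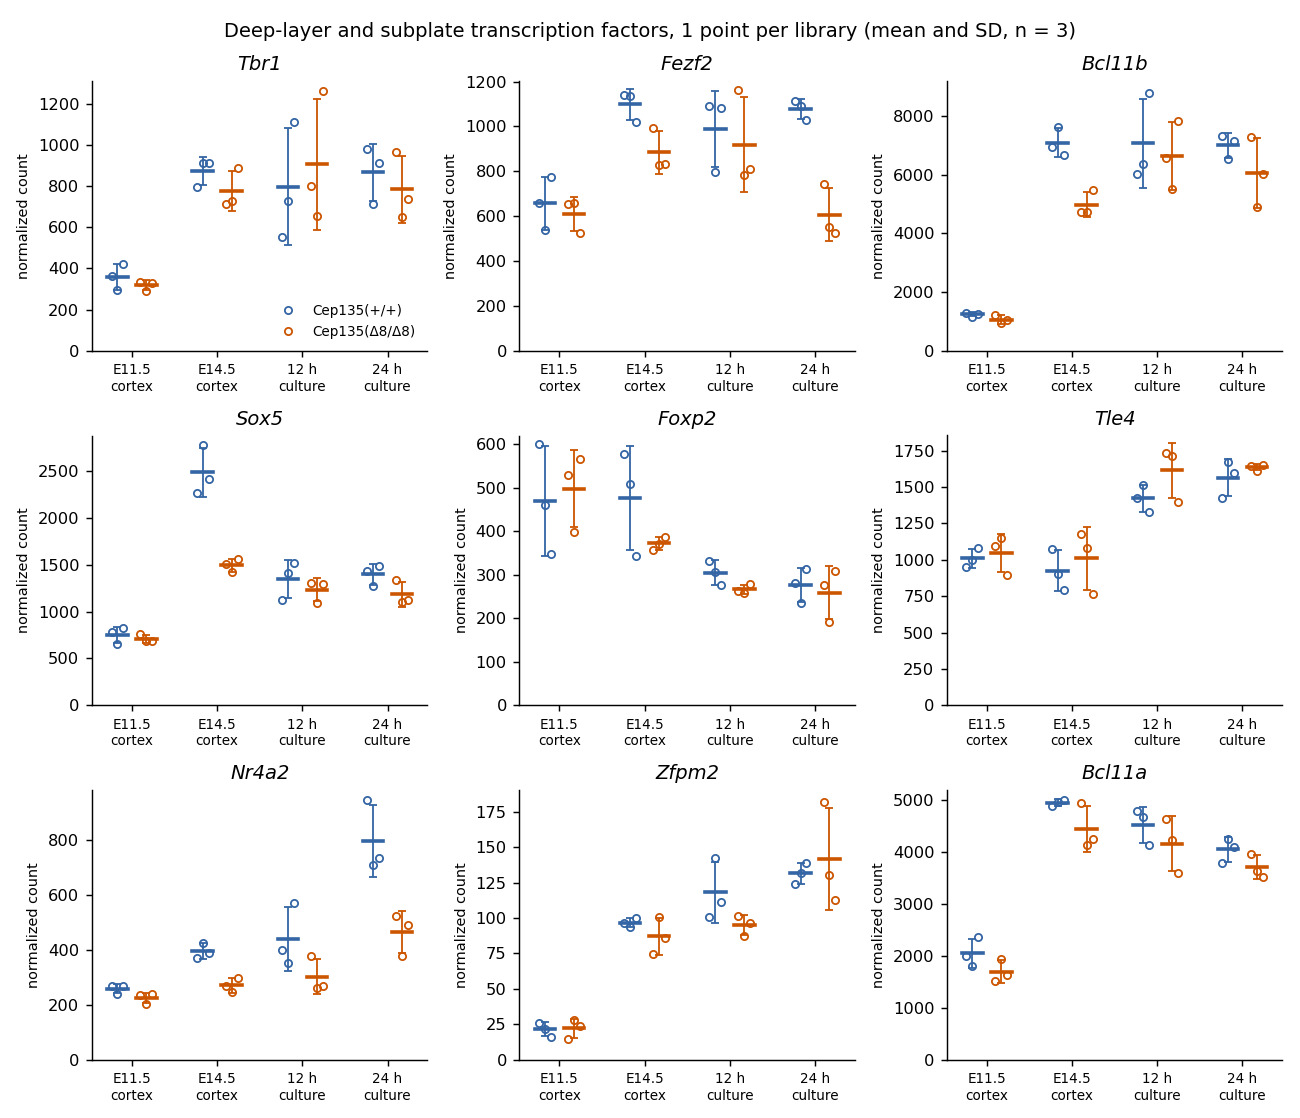
Normalized counts of the 9 genes (vertical axes, from 0) in the 4 sets of libraries (horizontal axis). Each circle is 1 library, with blue for Cep135(+/+) and orange for Cep135(Δ8/Δ8), and bars give the mean and SD of 3 libraries. *Bcl11b* rises from 1239 to 7088 between E11.5 and E14.5 in controls, *Sox5* is highest in E14.5 controls at 2484, and *Nr4a2* in 24-hour controls at 795.

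The first comparison was of age, between E11.5, when the dorsal telencephalon is mostly progenitors, and E14.5, when deep-layer neurons have formed. Libraries of these ages share no title prefix in the labels, so age and title prefix cannot be told apart. Control E was female while all E14.5 controls were male, and no term for sex was run for age within a genotype. In controls 7 of the 9 genes rose. *Bcl11b* rose most: its normalized counts were 1292, 1159.9 and 1264 in E11.5 controls and 6950.2, 7631 and 6684 in E14.5 controls. The groups were far apart, a 5.72-fold rise (log2 fold change 2.52 (SE 0.11), adjusted p = 7.7e-07, limma). In addition, *Bcl11b* rose in mutants, from 1226, 932 and 1038 to 4725, 4733 and 5487, 4.69-fold (log2 fold change 2.23 (SE 0.13), adjusted p = 3.35e-07). Over all genes tested, 18.3% were called higher and 18.8% lower with age in controls, and 18.4% and 20.9% in mutants, and the median over all genes in controls was -0.076 on the log2 scale, beside 1.28 for the 9 members. Other cells moved with age in controls as well: the apical progenitor genes summed to 25129 to 27676 at E11.5 and 14551 to 15865 at E14.5 (2 of 12 were called higher and 10 lower), the thalamic and diencephalic genes to 2478 to 3083 at E11.5 and 619.9 to 1273 at E14.5 (0 of 6 were called higher and 6 lower), the striatal and ventral genes to 6898 to 7797 at E11.5 and 10115 to 10910 at E14.5 (14 of 23 were called higher and 2 lower), and *Ttr*, a transcript of both choroid plexus and liver that was singled out after its values were seen, lay at 66.5 to 128 at E11.5 and 3055 to 5083 at E14.5. Their part in the changes of the members was not tested.

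*Zfpm2* had few reads at E11.5. Its normalized counts were 26.2, 21.7 and 16.3 in controls and 14.8, 27.9 and 23.8 in mutants at E11.5, and 96.5, 93.6 and 100.3 in controls and 74.5, 100.5 and 86.1 in mutants at E14.5. Each E14.5 library stood above each E11.5 library, and the rise passed the test in both genotypes (log2 fold change 2.15 (SE 0.23) in controls, adjusted p = 9.19e-05, and 1.96 (SE 0.28) in mutants, adjusted p = 0.000187). *Sox5* lay at 777, 654 and 824 in E11.5 controls and at 2266, 2771 and 2414 in E14.5 controls. In mutants *Sox5* went from 757, 685 and 688 to 1506, 1419 and 1557. The rise of *Sox5* was thus 3.31-fold in controls (log2 fold change 1.72 (SE 0.13), adjusted p = 1.11e-05) and 2.1-fold in mutants (1.07 (SE 0.11), adjusted p = 2.1e-05). The interaction of genotype and age for *Sox5* was -0.65 (SE 0.16) on the log2 scale, with an unadjusted p of 0.0012 and an adjusted p of 0.584, so the difference in its rise did not pass the test.

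*Tbr1* and *Bcl11a* rose by like amounts. *Tbr1* lay at 362, 295 and 420.5 in E11.5 controls and 794, 914 and 912 in E14.5 controls, a 2.45-fold rise (adjusted p = 0.000129), and rose 2.43-fold in mutants (adjusted p = 2.2e-05). *Bcl11a* lay at 1987, 1793 and 2350.4 and then at 4873, 4961 and 4999 in controls, a 2.43-fold rise (adjusted p = 4.98e-05), and rose 2.62-fold in mutants (adjusted p = 8.86e-06). For both genes all E14.5 libraries were above all E11.5 libraries. *Fezf2*, already at 658, 539 and 776 in E11.5 controls, rose to 1141, 1137 and 1019, 1.69-fold (adjusted p = 0.00272). In mutants the rise of *Fezf2* was 1.45-fold (adjusted p = 0.00818), and without mutant C it no longer passed (adjusted p = 0.0556).

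*Nr4a2*, *Foxp2* and *Tle4* departed from this course. *Nr4a2* lay at 267, 239 and 268 in E11.5 controls and 369, 425 and 389 in E14.5 controls, and rose 1.53-fold (adjusted p = 0.00374). In mutants it lay at 234, 203 and 238 and 266, 246 and 298, again without overlap, but the log2 fold change of 0.26 (SE 0.14) did not pass (adjusted p = 0.171), and the interaction with genotype was not significant either (adjusted p = 0.626). *Foxp2* lay at 599.6, 461 and 348 in E11.5 controls and 576, 507 and 343 in E14.5 controls, which overlapped (95% interval of the log2 fold change -0.49 to 0.53). In mutants *Foxp2* lay at 530.2, 397 and 566 and then at 358, 371 and 388 and changed by -0.40 on the log2 scale (adjusted p = 0.0493), a call that was lost with edgeR, DESeq2, TMM factors, no filter, all 24 libraries in 1 fit, or without 1 of mutants A, C, 1, 2 or 6. *Tle4*, at 953 to 1082 in E11.5 controls and 794 to 1074 in E14.5 controls, overlapped in both genotypes, with 95% intervals of -0.43 to 0.16 in controls and -0.43 to 0.29 in mutants.

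**Figure D2:**
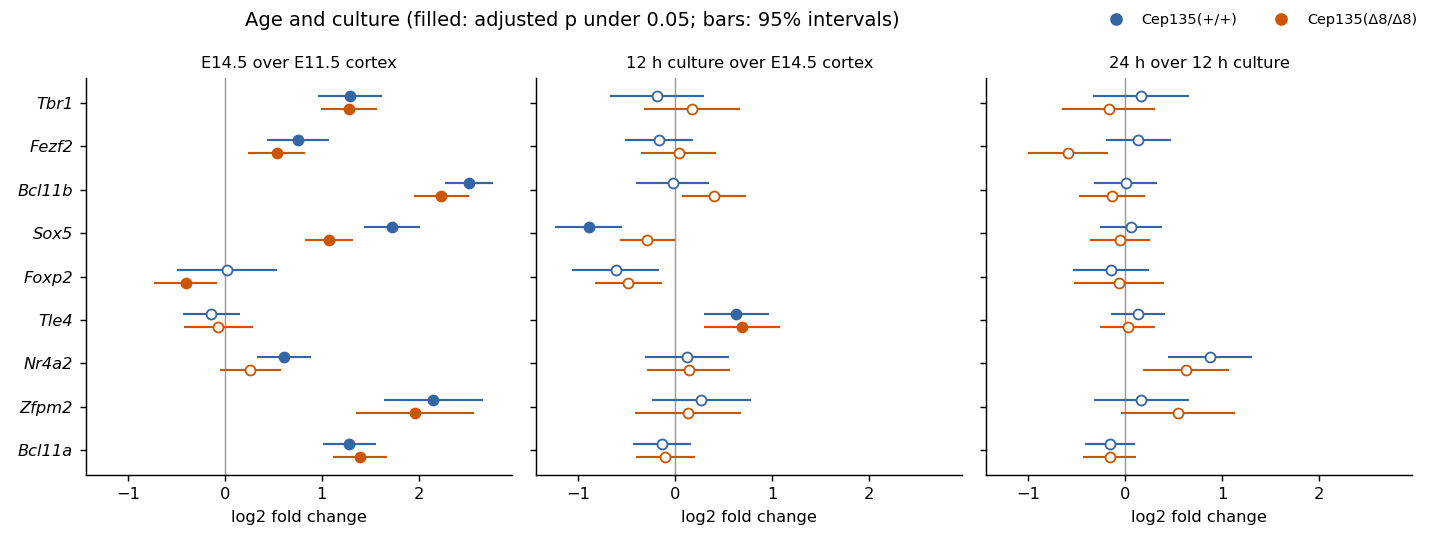
Log2 fold changes of the 9 genes (horizontal axes) for E14.5 over E11.5 cortex, 12-hour culture over E14.5 cortex, and 24-hour over 12-hour culture. Points are limma estimates from 3 libraries per group with 95% intervals, blue for controls and orange for mutants, filled where the adjusted p is under 0.05. Age moves 7 genes in each genotype, with *Bcl11b* at 2.52 in controls, while culture moves *Sox5* and *Tle4*.

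The second comparison was of E14.5 cortex with cells of the same embryos after 12 hours in suspension, in which 2 of the 9 passed in controls and 1 in mutants. *Sox5* fell in controls: it lay at 2266, 2771 and 2414 in the cortices of controls 3, 4 and 5 and at 1118, 1413 and 1515 in their cultures. All 3 cultures were below all 3 cortices (log2 fold change -0.89 (SE 0.16), adjusted p = 0.00431). In mutants *Sox5* started lower, at 1506, 1419 and 1557, and lay at 1306, 1088 and 1298 in culture, a change that did not pass (-0.28 (SE 0.13), adjusted p = 0.201). The interaction of genotype and culture was 0.60 (SE 0.20) for *Sox5*, with an unadjusted p of 0.00795 and an adjusted p of 0.793. In controls 7.81% of all genes were called higher and 8.17% lower in culture, and in mutants 3.97% and 4.99%.

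*Tle4* rose with culture in both genotypes. Its normalized counts were 1074, 902 and 794 in control cortices and 1422, 1514 and 1331 in control cultures, 1.55-fold higher (log2 fold change 0.63 (SE 0.15), adjusted p = 0.0187). In mutants they were 1179, 1082 and 767 and 1735, 1712 and 1399, 1.62-fold higher (0.69 (SE 0.18), adjusted p = 0.0353). Cultures and cortices did not overlap in either genotype. The call rested on single libraries, and the adjusted p ranged over 0.0161 to 0.0926 in controls and 0.0104 to 0.117 in mutants when 1 library at a time was left out: it was lost without the cortex of control 4 or the cultures of controls 3 or 4, and without either library of mutant 1 or 2 or the cortex of mutant 6. *Foxp2* was lower in culture, at 332, 306 and 276 in control and 262, 259 and 278 in mutant cultures, below all cortices of the same genotype. It did not pass (log2 fold change -0.61 (SE 0.21), adjusted p = 0.0642 in controls, and -0.48 (SE 0.15), adjusted p = 0.0816 in mutants). In controls DESeq2 and the fit over all 24 libraries called *Foxp2* lower, with adjusted p of 0.0331 and 0.0291. *Bcl11b* lay at 4725, 4733 and 5487 in mutant cortices and 6559.8, 5519 and 7835 in mutant cultures (log2 fold change 0.40 (SE 0.15), adjusted p = 0.124), and with embryo as a replicate block this paired difference passed (adjusted p = 0.0368).

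*Tbr1*, *Fezf2*, *Nr4a2*, *Zfpm2* and *Bcl11a* did not pass at 12 hours in either genotype. The 12-hour cultures were the more variable set for *Tbr1*, with 554, 729 and 1109 in controls and 801, 652 and 1261 in mutants, and its 95% interval for culture over cortex in controls was -0.67 to 0.30. *Fezf2* lay at 795 to 1092 in control cultures and 1019 to 1141 in the matching cortices. *Bcl11a* lay at 4122 to 4774 in control cultures and 4873 to 4999 in control cortices, without overlap. *Zfpm2* was apart in the other direction, at 100.7 to 142.1 and 93.6 to 100.3. Neither passed (limma, adjusted p = 0.525 and 0.445). The share of all genes without overlap was not taken for the age and culture comparisons.

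The cultures are labelled as progenitors, and pan-neuronal genes were read in them at levels like those of the cortex. The 20 pan-neuronal genes summed to 69075 to 72967 normalized counts in E14.5 control cortices and 69263 to 79843 in 12-hour control cultures, and the 12 apical progenitor genes to 14551 to 15865 and 11775 to 14406. Of the progenitor genes, 1 of 12 were called higher and 7 lower at 12 hours in controls (median log2 fold change -0.84), and of the intermediate progenitor genes 0 of 9 were called higher and 3 lower (median -0.50). Vascular, microglial and meningeal transcripts were far lower: 8 endothelial genes summed to 1052 to 1199 in the control cortices and 31.1 to 69.3 in 12-hour control cultures, 10 microglial genes to 478 to 539 and 28.2 to 53.5, and 8 meningeal and mesenchymal genes to 1568 to 2286 and 126 to 164. Erythroid genes went the other way, with sums of 38256 to 45371 in the control cortices and 106640 to 153171 in 12-hour control cultures (7 of 9 were called higher and 0 lower). These lists moved with culture beside *Sox5* and *Tle4*, and their part in the changes was not tested. In such bulk samples fewer cells of a type and less RNA per cell cannot be told apart.

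Between 12 and 24 hours of culture 0 of the 9 passed in either genotype by limma or by edgeR, and 1 passed by DESeq2 in controls. An unadjusted limma p under 0.05 was reached by 1 member and by 811 of 13294 genes in controls. In mutants 2 members and 573 of 13374 genes reached it. Few genes passed by limma in all: 0.00752% were called higher and 0.00752% lower in controls, and 0.00748% and 0% in mutants. *Nr4a2* was the member that moved most. It lay at 398, 349.9 and 570.1 in 12-hour and 944, 708 and 734 in 24-hour control cultures, without overlap. Its log2 fold change was 0.87 (SE 0.20) in controls (adjusted p = 0.367), and the paired fit with embryo as a replicate block called it higher (adjusted p = 0.0443), as did DESeq2 (0.0461), the fit over all 24 libraries (0.0244) and the fit without the 12-hour culture of control 5 (0.018). In mutants *Nr4a2* lay at 375, 261 and 268 and then at 524, 379 and 488 (log2 fold change 0.63 (SE 0.20), adjusted p = 0.939). The 11 immediate early genes, which are induced by stimulation and by dissociation as *Nr4a2* can be, summed to 1042 to 1149.8 in E14.5 control cortices, 3574 to 3943 in control cultures at 12 hours and 2969 to 3532 at 24 hours. In mutants they summed to 1104 to 1317 in E14.5 cortices, which overlapped with controls. Mutant cultures had 2881 to 3119 at 12 hours and 2638 to 2852 at 24 hours, below all controls at both times. In both genotypes this sum was highest at 12 hours, and *Nr4a2* at 24 hours. The part of these genes in the values of *Nr4a2* was not tested. The means of *Fezf2* took opposite directions, with libraries going from 1162, 784 and 809.8 to 744, 554 and 523 in mutants (-0.59 (SE 0.19), adjusted p = 0.939) and from 1092, 795 and 1084 to 1114, 1092 and 1028 in controls (0.14 (SE 0.15), adjusted p = 0.916). The direction in controls rested on 1 library, and without the 12-hour culture of control 4 the value was -0.014. The interaction of genotype and culture time for *Fezf2* was -0.73 (SE 0.25) (unadjusted p = 0.011, adjusted p = 1).

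The third comparison was of genotype, which asks what loss of CEP135 does to the factors in each set of libraries. In E14.5 cortices 8 of the 9 members had lower means in mutants, while 48.3% of all genes tested had a log2 fold change below 0. None of the 9 passed the test (limma, 0.0736% of 13583 genes called). An unadjusted limma p under 0.05 was reached by 4 members and by 1236 of the 13583 genes. Of the members, edgeR called 0 and DESeq2 called 2. *Sox5* differed most. It lay at 2266, 2771 and 2414 in controls 3, 4 and 5 and at 1506, 1419 and 1557 in mutants 1, 2 and 6. The highest mutant was well below the lowest control, and the log2 fold change was -0.73 (SE 0.12), with a 95% interval of -1.0 to -0.46 and an adjusted p of 0.112. *Sox5* passed with DESeq2 (adjusted p = 0.000204), without the filter (0.0388), with all 24 libraries in 1 fit (0.0157), without control 5 (0.0417) and with a term for the share of *Gm42418*, an alternative chosen after seeing the data (0.0488). With a term for sex the log2 fold change of *Sox5* was -0.67 and the adjusted p 0.618.

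*Bcl11b*, *Nr4a2* and *Fezf2* also separated the genotypes at E14.5. *Bcl11b* lay at 6950.2, 7631 and 6684 in controls and 4725, 4733 and 5487 in mutants (log2 fold change -0.51 (SE 0.13), adjusted p = 0.331, and 0.0429 by DESeq2). *Nr4a2* lay at 369, 425 and 389 and 266, 246 and 298 (-0.55 (SE 0.14), adjusted p = 0.332). *Fezf2* lay at 1141, 1137 and 1019 and 993, 826 and 833 (-0.32 (SE 0.13), adjusted p = 0.512). For these 3 and *Sox5* all mutants were below all controls, which holds for 6.71% of all genes tested. The exact two-sided permutation p was 0.1 for each of the 4, the smallest that 3 embryos against 3 allow. Mutant 6, the only male among the E14.5 mutants, was below each control for all 4, with *Sox5* at 1557, *Bcl11b* at 5487, *Nr4a2* at 298 and *Fezf2* at 833. This is 1 embryo.

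The other 5 members overlapped between genotypes at E14.5. *Tbr1* lay at 794, 914 and 912 in controls and 711, 726 and 888 in mutants, with a 95% interval of -0.47 to 0.12 for the log2 fold change. *Bcl11a* lay at 4873, 4961 and 4999 and 4942, 4126 and 4237 (interval -0.43 to 0.11). The controls of *Bcl11a* lay close together, and mutant 1 stood among them. *Foxp2* (-0.72 to 0.079) and *Zfpm2* (-0.56 to 0.24) had wider intervals, and *Tle4*, with 1074, 902 and 794 in controls and 1179, 1082 and 767 in mutants, was the member with a higher mutant mean (log2 fold change 0.12, interval -0.27 to 0.50).

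**Figure D3:**
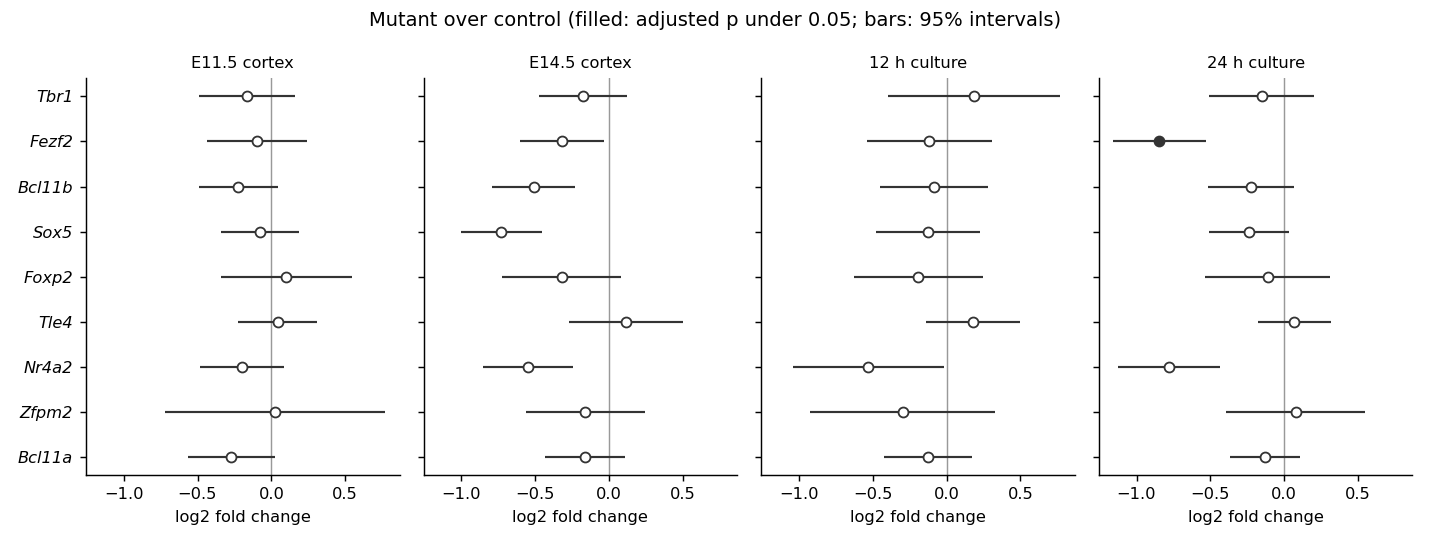
Log2 fold changes of the 9 genes in mutants over controls (horizontal axes) in the 4 sets of libraries, with 95% intervals from limma and 3 libraries per group. Filled points have an adjusted p under 0.05. *Fezf2* in 24-hour cultures, at -0.84, is the 1 filled point, and *Sox5* at E14.5 lies at -0.73.

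In 24-hour cultures *Fezf2* was lower in mutants and passed the test, as 0.271% of 13300 genes did. It lay at 1114, 1092 and 1028 in controls 3, 4 and 5 and at 744, 554 and 523 in mutants 1, 2 and 6. The groups did not overlap, and mutants had 0.557 times the level of controls (log2 fold change -0.84 (SE 0.15), 95% interval -1.16 to -0.53, adjusted p = 0.0295, lower in 3 of 3 mutants). The call held with edgeR and DESeq2 (adjusted p = 0.0415 and 0.000326). It was lost with a term for sex (log2 fold change -1.04, adjusted p = 0.0958), with a term for the share of *Gm42418* (-1.02, 0.939), and without 1 of controls 3 or 5 or mutants 2 or 6 (adjusted p of 0.115, 0.116, 0.122 and 0.095). Depth and the share of *Gm42418* moved with genotype in these libraries, and so did several lists for other cells. *Ttr* lay at 764 to 3509 in controls and 4826 to 16344 in mutants, and the other 10 liver genes summed to 11.3 to 27 and 125 to 430.4, with 6 of them at 0 throughout the controls. The other 8 choroid plexus and hem genes summed to 1060.0 to 1344 and 808 to 1131, which overlapped. Meningeal and mesenchymal genes (150.2 to 184 in controls and 254 to 306 in mutants), thalamic and diencephalic genes (523 to 665 and 850.3 to 1616), intermediate progenitor genes (1693 to 1901 and 1967 to 2313) and apical progenitor genes (13130.2 to 15424 and 16467 to 18497) were higher in all mutants, and pan-neuronal genes (79581 to 86009.7 and 64078 to 69860.4) and neuronal bHLH genes (5778 to 8605 and 4176 to 5300.3) lower. Immediate early genes (2969 to 3532 in controls and 2638 to 2852 in mutants) were lower in all mutants too. The part of these lists in the result was not tested.

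*Nr4a2* lay at 944, 708 and 734 in 24-hour controls and 524, 379 and 488 in mutants, without overlap (log2 fold change -0.78 (SE 0.16), adjusted p = 0.0669). DESeq2 called it (0.00436), as did the fit without a filter (0.00935). All mutants were below all controls for 9.06% of genes at 24 hours. *Sox5*, which had stood apart at E14.5, lay at 1434, 1271 and 1486 in 24-hour controls and 1339, 1097 and 1119 in mutants, which overlapped (-0.24 (SE 0.13), adjusted p = 0.547). *Bcl11b* lay at 7322, 6522 and 7152 and 7271, 4895 and 6016 (-0.22 (SE 0.14), adjusted p = 0.607). *Tle4* had the smallest spread of its 8 groups in the 24-hour mutants, 1648, 1612 and 1651, beside 1424, 1675 and 1596 in controls.

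At E11.5 and at 12 hours no member differed between genotypes by the test. None of the 9 passed at E11.5 (limma, 0.0149% of 13406 genes called, 0 members and 991 genes at an unadjusted p under 0.05). The member with the largest difference was *Bcl11a*, at 1987, 1793 and 2350.4 in controls and 1522, 1936 and 1621 in mutants (log2 fold change -0.27 (SE 0.13), adjusted p = 0.676). *Nr4a2*, at 267, 239 and 268 and 234, 203 and 238, was the 1 member with all mutants below all controls, which 6.11% of genes were. Sums of striatal and ventral genes (6898 to 7797 in controls and 5720 to 6535 in mutants) were lower in all E11.5 mutants. So were neuronal bHLH genes (1049 to 1492 and 756 to 1032), while microglial genes (318 to 480 and 487 to 668) were higher. Pan-neuronal, apical progenitor and erythroid sums overlapped. The part of these lists in the values of the members was not tested. The 95% intervals at E11.5 were -0.34 to 0.19 for *Sox5* and -0.43 to 0.24 for *Fezf2*. At 12 hours 0% of genes passed by limma, with 650 at an unadjusted p under 0.05, 0 called by edgeR, 9 by DESeq2 and 77 in the fit over all 24 libraries. *Nr4a2* was the 1 member at an unadjusted p under 0.05, with 398, 349.9 and 570.1 in controls and 375, 261 and 268 in mutants (-0.53 (SE 0.24), adjusted p = 0.913), and all mutants were below all controls for 0 members and 5.94% of genes.

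Over the 12 cortices with age as a term, none of the 9 passed either (limma, 0.139% of 13650 genes called, 4 members and 1189 genes at an unadjusted p under 0.05). *Nr4a2* was lower in all mutants than in all controls at both ages, as 0.52% of genes were, with a log2 fold change of -0.37 (SE 0.10) (adjusted p = 0.23). At E11.5 its gap was narrow, with mutant C at 238.0 and control E at 239.2. Its exact permutation p, with labels permuted within age, was 0.005, the smallest this design allows. *Bcl11b* (-0.37 (SE 0.089), adjusted p = 0.196, exact permutation p = 0.01) and *Sox5* (-0.40 (SE 0.11), adjusted p = 0.297, exact permutation p = 0.03) followed. The permutation values are not adjusted for the 9 genes or the 5 genotype comparisons. No member passed an interaction of genotype with age, with 12-hour culture or with culture time, and 0%, 0% and 0% of genes did (limma, 1070, 724 and 318 genes at an unadjusted p under 0.05). The fit over all 24 libraries called 1 gene for the interaction with age, and for 12-hour culture edgeR called 1 and DESeq2 5, none of them a member. For culture time edgeR and DESeq2 called 0.

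The other genes of these neurons were taken from lists, to set the 9 beside their program. The table holds 24 further deep-layer and subplate genes of the list, and with age in controls 13 of 20 were called higher and 2 lower (median log2 fold change 1.12). Among them were *Hs3st4* (log2 fold change 4.62, adjusted p = 1.08e-05) and *Rprm* (log2 fold change 1.79, adjusted p = 1.29e-05). With genotype at E14.5 0 of 21 were called higher and 0 lower, with a median of -0.32, beside -0.32 for the 9 members and 0.013 for all genes. In 24-hour cultures 1 was called lower, *Wnt7b* (log2 fold change -0.92, adjusted p = 0.0295), a secreted signal of deep-layer neurons. With 12 hours of culture in controls 1 of 20 were called higher and 8 lower (median -0.50), while the median of the 9 members was -0.13. *Wnt7b* (log2 fold change -1.33, adjusted p = 0.000863) and *Lpar1* (log2 fold change -1.45, adjusted p = 0.00605) were among those called lower. In controls the mean of *Lpar1* was 490 at E11.5, 295 at E14.5 and 113 at 12 hours of culture.

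The upper-layer and callosal genes, whose neurons come later, gave like values at E14.5. With age in controls 10 of 14 were called higher and 2 lower (median 1.11), and with genotype at E14.5 0 of 14 were called higher and 0 lower (median -0.32). In 24-hour cultures *Mef2c* was called lower (log2 fold change -0.69, adjusted p = 0.0444). The median genotype differences of the 9 members and of the upper-layer genes were thus -0.32 and -0.32. The upper-layer list was read at E11.5 already, with sums of 8029 to 9383 in controls, beside 12544 to 13374 at E14.5. It therefore does not read upper-layer neurons alone. Pan-neuronal genes rose with age in controls (19 of 20 were called higher and 0 lower, median 1.65) and with genotype at E14.5 0 of 20 were called higher and 0 lower (median -0.12).

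Set against the mean log2 level of the 20 pan-neuronal genes in the same library, the members differed as follows. That mean was 11.10 ± 0.040 in E14.5 controls and 11.01 ± 0.10 in mutants (SD, n = 3 each), a difference of -0.095, and relative to it *Sox5* differed by -0.63, *Nr4a2* by -0.45 and *Bcl11b* by -0.42 on the log2 scale. At 24 hours it was 11.44 ± 0.055 in controls and 11.14 ± 0.051 in mutants, without overlap, and relative to it *Fezf2* differed by -0.54 and *Nr4a2* by -0.47, while *Sox5* (0.066), *Bcl11b* (0.081) and *Tbr1* (0.15) lay above 0. With age in controls the pan-neuronal mean rose by 1.68, more than *Tbr1*, *Bcl11a*, *Fezf2* and *Nr4a2* did and less than *Bcl11b* (0.84 beyond it), *Zfpm2* (0.47) and *Sox5* (0.049). The other sets differed from E14.5, where *Tle4* (0.21) lay above 0 and the other members below it. With genotype at E11.5 the pan-neuronal mean differed by -0.35, and relative to it each member lay above 0, from 0.077 (*Bcl11a*) to 0.45 (*Foxp2*). At 12 hours only *Nr4a2* (-0.29) and *Zfpm2* (-0.056) lay below 0. Over the 12 cortices *Sox5* differed by -0.18, *Nr4a2* by -0.15 and *Bcl11b* by -0.15. These relative values are descriptions and were not tested.

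**Figure D4:**
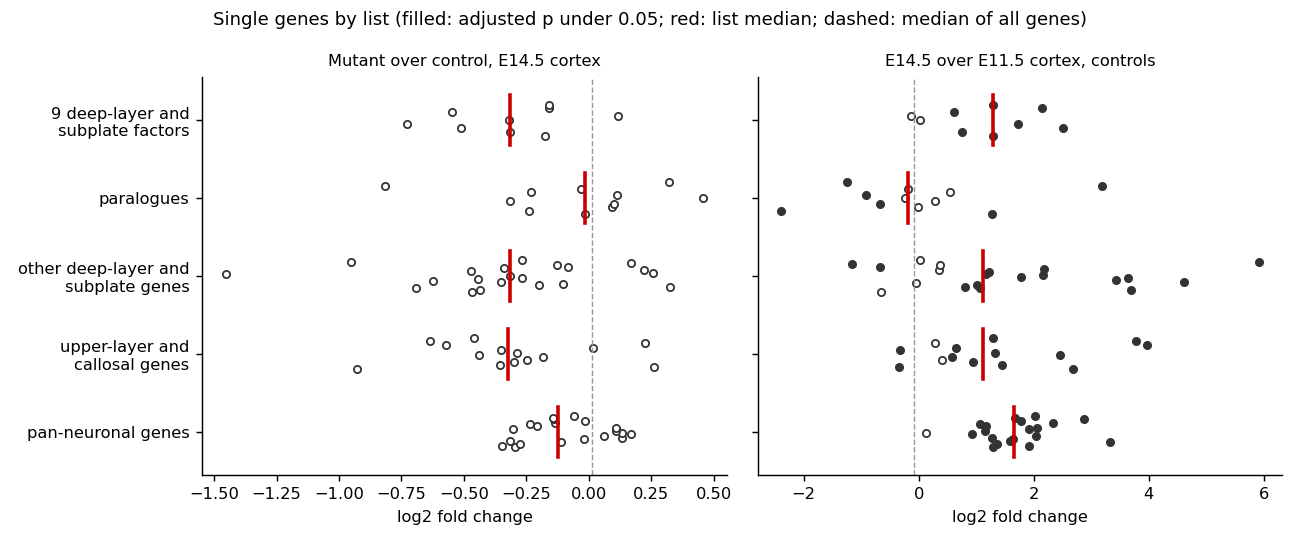
Log2 fold changes of single genes (horizontal axes) in 5 lists, for mutants over controls in E14.5 cortex and for E14.5 over E11.5 cortex in controls. Each circle is a gene, filled where its adjusted p is under 0.05, with the list median in red and the median of all genes dashed. The medians of the 9 factors and of the upper-layer genes lie at -0.32 and -0.32 with genotype, and at 1.28 and 1.11 with age.

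The paralogues of the 9 are their close relatives. With age in controls 2 of 11 were called higher and 4 lower (median -0.19), and with genotype at E14.5 0 of 11 were called higher and 0 lower (median -0.013). Sums of the paralogues overlapped between genotypes at E14.5 and 12 hours, and at 24 hours were 4350 to 4560 in controls and 3750 to 4256 in mutants. *Foxp1*, the relative of *Foxp2*, was lower in all mutants at E14.5 (1499 to 1692 in controls and 1146 to 1386 in mutants). It was so too at 12 hours (1559 to 1693 and 1280 to 1453) and 24 hours (1746 to 1847 and 1165 to 1367). *Nr4a3*, the relative of *Nr4a2*, rose with age (log2 fold change 3.18, adjusted p = 3.98e-05) and in 12-hour control cultures (log2 fold change 1.09, adjusted p = 0.0141). *Fezf1*, the relative of *Fezf2*, fell with age (log2 fold change -2.39, adjusted p = 8.18e-05). *Eomes*, the T-box relative of *Tbr1* in intermediate progenitors, rose with age (log2 fold change 1.27, adjusted p = 0.000171) and fell in 12-hour control cultures (log2 fold change -1.08, adjusted p = 0.00207).

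Lists for other cells moved with genotype beside the members at E14.5. The 6 neuronal bHLH genes summed to 8114 to 8429 in controls and 4614 to 6367 in mutants, with *Neurod6* called lower (log2 fold change -0.87, adjusted p = 0.0481). The 9 Cajal-Retzius genes summed to 1337 to 1479 and 2008 to 2368 (none called, median 0.63), and the 10 microglial genes to 478 to 539 and 868 to 1049 (1 of 9 called higher). The 24 striatal and ventral genes, which bear on *Bcl11b* and *Foxp2*, summed to 10115 to 10910 and 9663 to 10416 and overlapped. The 12 apical progenitor genes (14551 to 15865 and 15825 to 18159) overlapped narrowly. Endothelial genes (1052 to 1199 and 1037 to 1179), erythroid genes (38256 to 45371 and 38649.7 to 45019.5), choroid plexus and hem genes (3679 to 5726 and 1443 to 8166) and thalamic and diencephalic genes (619.9 to 1273 and 737 to 3107) overlapped as well. None of the genes of these lists is at 0 throughout either E14.5 group. *Ttr* lay at 3055 to 5083 in controls and 681 to 7339 in mutants, and the other 10 liver genes summed to 65.9 to 1129.9 and 58.7 to 85, with 5 of them at 0 throughout the mutants. Of the liver genes 0 of 8 were called higher and 0 lower, and all 8 were below 0 (median -3.61), the opposite direction to that at 24 hours. The part of these cells in the values of the members was not tested.

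Over the 24 libraries the 9 genes fell into patterns. The log2 levels of *Tbr1*, *Bcl11b*, *Zfpm2* and *Bcl11a* went together, with Pearson's r of 0.948 between *Tbr1* and *Bcl11b* and 0.944 between *Bcl11b* and *Zfpm2*, and *Sox5* had an r of 0.859 with *Bcl11a*. *Foxp2* had a negative r with each other member, among them -0.756 against *Tle4* and -0.641 against *Zfpm2*. These values describe 24 libraries that share ages, embryos and depth, and carry no test. Of 13678 genes, the one that followed *Bcl11b* most closely was *Nfib* (r = 0.989), for *Bcl11a* *Zbtb18* (r = 0.985), for *Zfpm2* *Atp2b2* (r = 0.971), for *Sox5* *Mpped1* (r = 0.966) and for *Tbr1* *Abr* (r = 0.957). *Mpped1* shared the gap of *Sox5* at E14.5, with a mean of 1718 in controls and 864 in mutants, and *Nfib* had 12762 and 8909. The nearest genes of the remaining members were *Hsd17b12* (r = 0.933) for *Tle4*, *Cdc26* (r = 0.895) for *Foxp2*, *Pitpnc1* (r = 0.878) for *Nr4a2* and *Sarm1* (r = 0.841) for *Fezf2*.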

How the data were processed

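RNA was measured in 24 libraries. Per the labels and the study's methods, the authors made 3′ libraries with oligo(dT) priming, aligned reads to GRCm38 with TopHat2 2.0.10 and Bowtie 1.0.0, and counted them with HTSeq 0.6.1 on GENCODE vM20 genes. The deposited values are a signal: each count was divided by the size factor of its library, and no libraries were pooled. These values, called normalized counts, were whole multiples of what 1 read is worth in all 24 libraries, to within 0.0001 reads. The count tests used these reads in 23 libraries. In E11.5 control D, where 1 read was worth 1.01, the step was too near 1 for the rule that accepts recovered reads, and edgeR and DESeq2 were not run for comparisons that hold it. No deposited column was left out.

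Groups came from the labels. Comparisons used limma (version 3.58.1, R 4.3.3, trend set). Fold changes are on the scale of log2(normalized count + 1), and genes whose mean over the compared libraries fell under 10 were not tested. P-values were adjusted over all genes tested (Benjamini-Hochberg), with a threshold of 0.05, and intervals are 95% intervals of the moderated fit. Only the groups compared entered a fit. Exact two-sided permutation tests were run for members, with a smallest possible p of 0.1 for 3 against 3. Each library is 1 embryo or its culture, and with 3 per group only wide differences can pass. The 9 members and the gene lists were chosen with earlier results of these data known. Besides the members and *Cep135*, the rule named the gene closest in Pearson's r to each member and at most 4 genes per list, those with the smallest p. The values of *Foxp1* were added after they were seen. Deviations from the group mean of libraries with the same embryo number correlated at -0.114 to 0.235 over 18 pairs, 12 of them over 0.1. The main fits did not pair libraries of the same embryo. Only the alternative with embryo as a replicate block paired them, because the labels give them the same embryo. Alternatives were a pseudocount of 5, no filter, TMM factors, edgeR 4.0.16 and DESeq2 1.42.0 on whole reads, all 24 libraries in 1 fit, terms for sex, title prefix or embryo, and leaving out each library. A term for the share of *Gm42418* was added after seeing the data. The steps were tested on simulated data.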

Additional observations from a re-analysis of the deposited data

How the results depend on the processing

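The number of the 9 members called was followed through 200 alternative fits of the 14 comparisons and stayed within 1.5 times of the value reported in 174. For genotype at E14.5 it went from 0 to 1 without the filter, 2 with DESeq2, 1 with all 24 libraries in 1 fit and 1 with the *Gm42418* term, and to 0 to 1 leaving out 1 library. At 24 hours it went from 1 to 2 without the filter, 2 with DESeq2, 0 with the sex term and 0 with the *Gm42418* term, and to 0 to 1 leaving out 1 library. For culture the leave-one-out ranges were 1 to 3 in controls (2 reported) and 0 to 1 in mutants (1 reported), and 0 to 1 for 24 over 12 hours in controls (0 reported). With embryo as a replicate block 2 members were called in mutant cultures over cortex and 1 in 24 over 12 hours in controls, where DESeq2 and the fit over 24 libraries also gave 1; this paired fit changed no other count of members by over 1.5 times. Over all 126 member fold changes 98 alternative values changed sign, none of a value with an unadjusted p under 0.05, and the reported values that turned were at most 0.19 in size on the log2 scale. They include *Bcl11b* at 12 hours (0.17), *Foxp2* (0.17) and *Zfpm2* (-0.22) at 24 hours with the sex term, and *Foxp2* (0.26) and *Tbr1* (0.11) at 24 hours with the *Gm42418* term. They also include *Tbr1* (0.027) and *Tle4* (-0.26) at E14.5 with the sex term, *Tle4* with age in mutants by edgeR (0.0090) and DESeq2 (0.0017), and, with 1 library left out, *Tle4* at E14.5 (-0.0083 to 0.30) and with age in mutants (-0.19 to 0.12) and *Foxp2* with age in controls (-0.18 to 0.24). The cause was not tested. There are 3 libraries per group. All E14.5 controls were male, so in the E14.5 embryos sex and genotype are told apart by 1 male mutant alone. Depth at 24 hours was split by genotype, and depth and genotype cannot be told apart there. EdgeR and DESeq2 were not run for the comparisons that hold E11.5 control D.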
